A study of Mus musculus with 11 samples.

Results

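Cholesterol that macrophages take up with lipoproteins, surfactant and dead cells is freed in lysosomes, stored as ester or passed out of the cell. The liver X receptors (LXR) are nuclear receptors that bind oxysterols, pair with RXR and switch on the exporters of this route. In alveolar macrophages, the phagocytes of the air spaces, the same genes take part in clearing surfactant lipid. The 10 genes described here are the receptors Nr1h3 (LXR alpha) and Nr1h2 (LXR beta), the exporters Abca1 and Abcg1, the lipoprotein Apoe, the ubiquitin ligase Mylip, the lysosomal genes Lipa, Npc1 and Npc2, and the esterifying enzyme Soat1. They were chosen by name, were looked up by symbol among 57180 Ensembl identifiers, and all 10 were among the 19948 genes that passed the filter on low counts.

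The data are bulk RNA-seq read counts from alveolar macrophages sorted by flow cytometry from lung homogenates of C57BL/6 WT pups at postnatal day 7. Hyperoxia pups had breathed 95% oxygen from postnatal day 1 to day 5, and gave 3 female libraries (HF1, HF2, HF3) and 2 male libraries (HM2, HM3). Normoxia pups gave 3 female libraries (NF1, NF2, NF3) and 3 male libraries (NM1, NM2, NM3). All groups share strain, age and sorted cell type, and the labels do not say whether a library is 1 animal or a pool, and the p-values given here speak of the spread from library to library, some of which can be technical. By its title, the series dealt with sex as a variable in these cells.

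Total counts ran from 18087948 in NM3 to 32579468 in NF1. Between 33158 and 35530 genes were detected (1 count or more) in NM3, NF3, HF2 and HF3, and 26856 to 30173 in the other 7 libraries. Counts of Xist and of the Y-linked Ddx3y went with the labelled sex in every library. Markers of alveolar macrophages summed to 4370 to 6130 CPM (counts scaled to the TMM-adjusted library size) in hyperoxia libraries. In normoxia libraries they summed to 4180 to 7030 CPM, and none of the 14 was at 0. Over both sexes 5 of the 14 fell (edgeR, adjusted p under 0.05), where 33 of all 19948 genes tested fell. The 5 were Fabp1, Ctsk, Cidec, Krt79 and Ear1. The other 9 were not called, with log2 fold changes, hyperoxia over normoxia, from -0.85 (Chil3) to 0.18 (Marco). Mrc1, the most abundant of the list, had 0.01 ± 0.24 (SE). The list was drawn up with earlier results of these data known. Markers of monocytes summed to 1130 to 2270 CPM in hyperoxia libraries and 577 to 2330 CPM in normoxia libraries, none of 8 being at 0. Those of interstitial macrophages summed to 36.1 to 128 CPM in hyperoxia libraries, highest in HF2, and 27.2 to 50.3 CPM in normoxia libraries, with none of 9 at 0. Erythroid markers summed to 52.1 to 302 CPM in hyperoxia libraries and 101 to 1200 CPM in normoxia libraries, highest in NM1. Epithelial markers summed to 70 to 146 CPM in hyperoxia libraries and 47.2 to 92 CPM in normoxia libraries. The part of these other cells in the values below was not tested. In bulk RNA fewer cells of a type and less RNA per cell cannot be told apart.

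The Abca1 promoter is shown because it is the textbook site of LXR action, where LXR and RXR bind together. The motif searched was a direct repeat of AGGTCA with a spacer of 4 bases, on both strands of the 250 bases before each start in the RefSeq promoter table (build GRCm38.p6). That table held promoters for 8 of the members. The sequence lies at chr4:53159896-53160145 on the minus strand, and capitals mark its closest match to the motif.

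Abca1: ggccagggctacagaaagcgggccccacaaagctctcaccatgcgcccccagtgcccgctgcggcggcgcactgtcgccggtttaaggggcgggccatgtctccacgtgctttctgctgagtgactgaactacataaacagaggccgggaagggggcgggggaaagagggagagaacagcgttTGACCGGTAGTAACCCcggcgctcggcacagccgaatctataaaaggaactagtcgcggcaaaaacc

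The match begins 67 bases before the start, lies on the other strand, and differs from the motif at 3 of its 12 fixed positions. A match with at most 3 differences was found in 18.5% of 32851 promoters. The closest matches of Nr1h3, Nr1h2, Apoe, Soat1 and Lipa differed at 4 positions, which 70.6% of promoters reach, that of Npc2 at 5 and that of Mylip at 6. The E-box CACGTG, a core bound by the lysosomal regulator TFEB among other factors, was in the Abca1 promoter, 147 bases before the start, and in none of the windows of Lipa, Npc2 or the other members. It was in 6.02% of all promoters. Such matches are descriptions of these windows only.

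Among the members the levels differed widely. They were set against each other per length, taken over all annotated exons of a gene merged. That length can exceed the length of the transcript expressed, so orders and ratios between genes depend on it. Per kilobase of exon, Abcg1 and Apoe stood highest, at 198 ± 63.5 and 165 ± 20.7 CPM per kb (SD, n = 11), and their ranges over libraries overlapped. Abcg1 was at or above 99.0% of tested genes with a known length. Lipa followed at 69.5 ± 13 CPM per kb (SD, n = 11), below the range of Apoe, and then Npc2 at 37.0 ± 4.15 and Soat1 at 27.2 ± 5.16 CPM per kb (SD, n = 11). The lowest were Nr1h2 (20.2 ± 4.3), Npc1 (17.9 ± 6.25), Mylip (14.4 ± 3.92), Nr1h3 (12.9 ± 2.3) and Abca1 (9.8 ± 2.52 CPM per kb, all SD, n = 11). From Lipa down, each gene's range over the libraries overlapped that of the next. The 2 exporters therefore stood at the ends of the order. Abca1, the lowest, was still at or above 80.6% of tested genes per length.

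**Figure D1:**
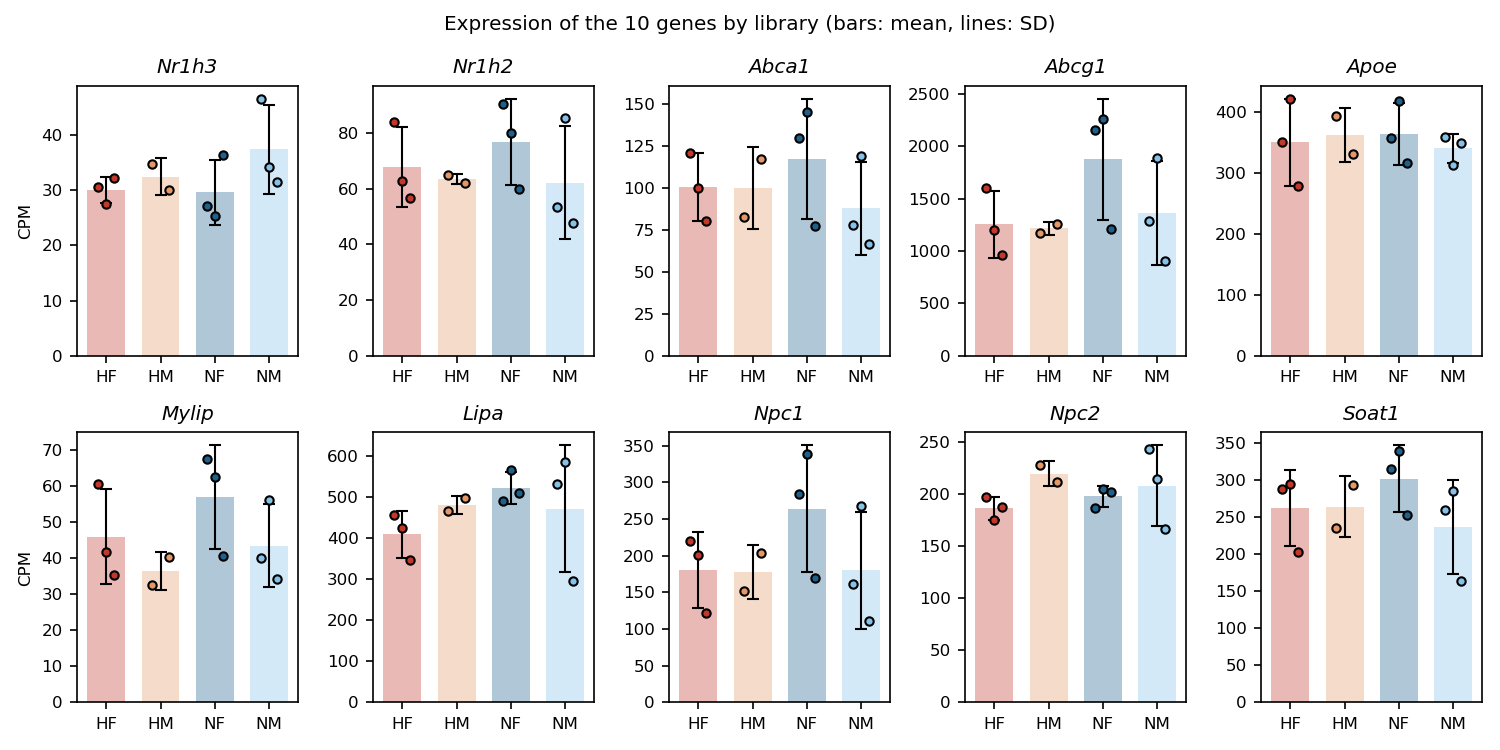
Expression in CPM (y axis, linear from 0) of the 10 genes in hyperoxia females (HF, 3 libraries), hyperoxia males (HM, 2), normoxia females (NF, 3) and normoxia males (NM, 3), with points for libraries, bars for means and lines for SD. The points of hyperoxia and normoxia overlap in every panel, except that the HF points of Lipa lie between 347 and 457 CPM, below the NF points at 491 to 567 CPM.

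The first comparison asked how hyperoxia, given over the first days of life, left these genes at day 7. None of the 10 passed the test over both sexes, while 0.707% of all 19948 genes did (edgeR's quasi-likelihood test, Benjamini-Hochberg adjusted p under 0.05), and none had an unadjusted p under 0.05, against 8.13% of all genes. Their log2 fold changes, hyperoxia over normoxia, ran from -0.37 to 0.02 with a median of -0.08. Of the 10, 9 lay below 0, where the median over all genes was -0.03 and 45.9% lay above 0. All 10 confidence intervals (95%) stayed within 1 log2 unit of 0, the outermost bounds being -0.89 for Abcg1 and 0.44 for Abca1. A rise of over 1.36-fold or a fall of over 1.85-fold thus lay outside every interval.

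The receptors came first in the order of the route. Nr1h3, the LXR most abundant in liver, fat and macrophages, had 30.6, 27.5 and 32.1 CPM in HF1 to HF3 and 34.8 and 30.1 CPM in HM2 and HM3. It had 27.1, 25.3 and 36.3 CPM in NF1 to NF3 and 46.5, 34.1 and 31.5 CPM in NM1 to NM3. The hyperoxia libraries lay inside the normoxia range, with NM1 the highest of all. Between all hyperoxia and all normoxia libraries no member was without overlap, against 2.16% of all genes. The log2 fold change was -0.09 ± 0.16 (SE, 95% interval -0.43 to 0.25).

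Nr1h2, the LXR found in most tissues, had 84.0, 62.9 and 56.7 CPM in HF1 to HF3 and 64.8 and 62.1 CPM in HM2 and HM3. In normoxia it had 90.4, 79.8 and 59.8 CPM in NF1 to NF3 and 53.3, 85.4 and 47.8 CPM in NM1 to NM3. Again the hyperoxia values lay within the normoxia range, and the log2 fold change was -0.07 ± 0.19 (SE, 95% interval -0.48 to 0.33). Per length, Nr1h3 stood at 0.486 to 0.754 of Nr1h2 in the hyperoxia libraries and at 0.400 to 1.16 of it in the normoxia libraries. NM1 was the only library of the 11 in which the Nr1h3 level exceeded that of Nr1h2.

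Of the exporters, Abca1 hands cholesterol and phospholipid to lipid-poor apolipoproteins. It had 121, 100 and 80.5 CPM in HF1 to HF3 and 82.7 and 117 CPM in HM2 and HM3, against 130, 145 and 77.1 CPM in NF1 to NF3 and 77.8, 119 and 66.5 CPM in NM1 to NM3. Both the highest and the lowest library were normoxia ones. The log2 fold change was -0.02 ± 0.22 (SE, 95% interval -0.47 to 0.44).

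Abcg1 moves sterol toward mature lipoprotein particles, and mice that lack it fill their alveolar macrophages with lipid. It had 1600, 1200 and 963 CPM in HF1 to HF3 and 1170 and 1260 CPM in HM2 and HM3, against 2150, 2260 and 1210 CPM in NF1 to NF3 and 1290, 1890 and 904 CPM in NM1 to NM3. The 3 highest libraries were of normoxia, but NF3 and NM1 lay among the hyperoxia values and NM3 below them. It averaged 1240 ± 228 CPM in hyperoxia libraries (SD, n = 5) and 1620 ± 557 CPM in normoxia libraries (SD, n = 6). Its log2 fold change of -0.37 ± 0.24 (SE) was the furthest from 0 of the members and did not pass (edgeR quasi-likelihood, Benjamini-Hochberg adjusted p = 0.831). Leaving out NM3, NF3, HF2 and HF3 keeps only HF1 of the hyperoxia females and lends it the spread of the other groups. The Abcg1 value was then -0.43 ± 0.18 (SE).

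Within a library the exporters could be set against each other. Per length, the Abcg1 level was 18.7, 17.0 and 17.0 times that of Abca1 in HF1 to HF3 and 20.1 and 15.2 times in HM2 and HM3. The ratio was 23.4, 22.1 and 22.3 in NF1 to NF3 and 23.6, 22.6 and 19.3 in NM1 to NM3. It was lower in all hyperoxia females than in all normoxia females, while HM2 lay above NM3. This ratio was picked as a pair of members with earlier results known, and is given with no test. Of single genes, 10.2% did not overlap between the oxygen groups in females, and the share over pairs of genes was not counted.

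**Figure D2:**
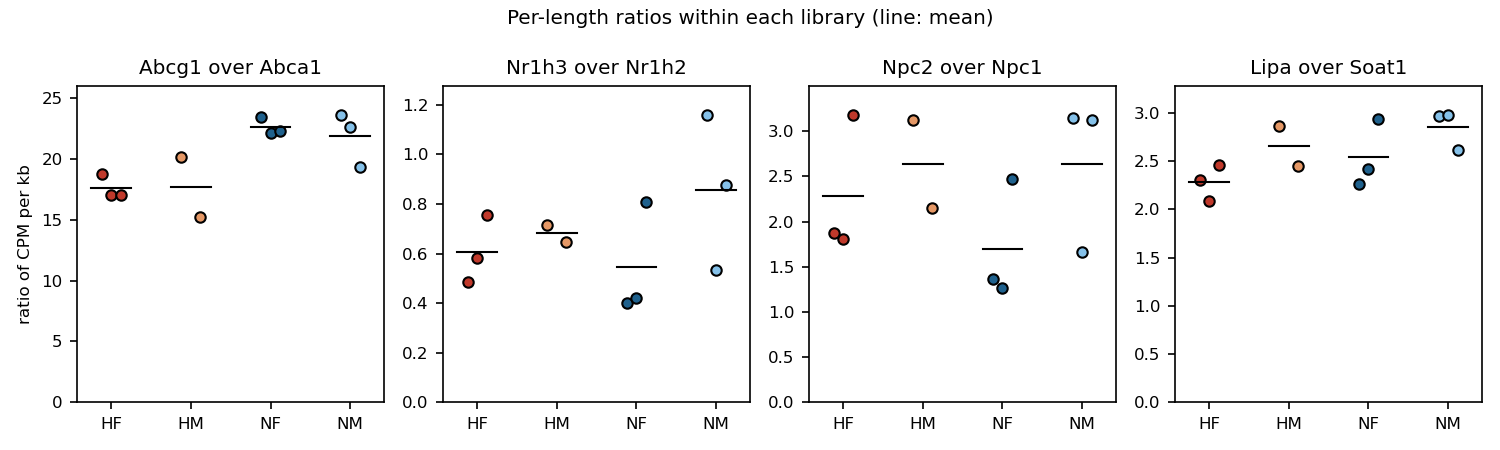
Per-length ratios (y axes, ratio of CPM per kb, linear from 0) of 4 pairs of genes within each library, with points for libraries and lines for group means in hyperoxia females (HF), hyperoxia males (HM), normoxia females (NF) and normoxia males (NM). Abcg1 over Abca1 lies at 15.2 to 20.1 in hyperoxia libraries and 19.3 to 23.6 in normoxia libraries, and the other ratios overlap more widely.

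Apoe, the apolipoprotein that macrophages secrete and that accepts exported cholesterol, varied little. It had 351, 422 and 279 CPM in HF1 to HF3 and 394 and 332 CPM in HM2 and HM3, against 358, 418 and 316 CPM in NF1 to NF3 and 359, 313 and 350 CPM in NM1 to NM3. Hyperoxia libraries held both its highest and its lowest value. HF2, the highest, was also the library with most interstitial macrophage marker RNA (128 CPM). NF2 had nearly as much Apoe with 32.8 CPM of that marker RNA, and the part of these cells was not tested. The log2 fold change was 0.02 ± 0.18 (SE, 95% interval -0.36 to 0.40).

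Mylip encodes an LXR-induced ubiquitin ligase that limits lipoprotein uptake. It ranged over 35.5 to 60.8 CPM in HF and 32.7 to 40.3 CPM in HM, against 40.6 to 67.7 CPM in NF and 34.2 to 56.3 CPM in NM. The groups overlapped within each sex, and its log2 fold change of -0.28 ± 0.20 (SE, 95% interval -0.70 to 0.14) did not pass.

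Lysosomal release of cholesterol starts with Lipa, the acid lipase that cuts cholesteryl esters. It had 457, 426 and 347 CPM in HF1 to HF3 and 466 and 498 CPM in HM2 and HM3, against 491, 567 and 512 CPM in NF1 to NF3 and 534, 587 and 297 CPM in NM1 to NM3. All hyperoxia females lay below all normoxia females. Lower values with no overlap were found for 4.01% of all genes in that comparison. No other member was without overlap in females, where 10.2% of all genes were. In males the groups of every member overlapped, while those of 17.1% of all genes did not. In males NM3 was lower than both hyperoxia libraries, and NM1 and NM2 were higher. The log2 fold change over both sexes was -0.16 ± 0.20 (SE, 95% interval -0.59 to 0.26), and it was -0.35 ± 0.27 (SE) in females and 0.03 ± 0.30 (SE) in males.

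Npc2, the soluble lysosomal protein that picks up the freed cholesterol, was among the steadiest members, at 175 to 228 CPM in hyperoxia libraries and 166 to 243 CPM in normoxia libraries. Its log2 fold change was 0.00 ± 0.17 (SE, 95% interval -0.35 to 0.35). Npc1, the membrane protein to which Npc2 hands cholesterol for export from the lysosome, was the most variable member. It had 220, 201 and 122 CPM in HF1 to HF3 and 152 and 204 CPM in HM2 and HM3, against 284, 339 and 170 CPM in NF1 to NF3 and 161, 268 and 111 CPM in NM1 to NM3. NF1, NF2 and NM2 lay above every hyperoxia library and NM3 below, and the log2 fold change was -0.28 ± 0.25 (SE, 95% interval -0.82 to 0.26). It was -0.08 without NM2 and -0.42 without NM3. Soat1, which turns free cholesterol back into ester for storage, ranged over 203 to 295 CPM in hyperoxia libraries and 164 to 339 CPM in normoxia libraries (log2 fold change -0.02 ± 0.20, SE, 95% interval -0.44 to 0.40). Per length, Lipa stood at 2.09 to 2.86 times Soat1 in hyperoxia libraries and 2.26 to 2.98 times in normoxia libraries.

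**Figure D3:**
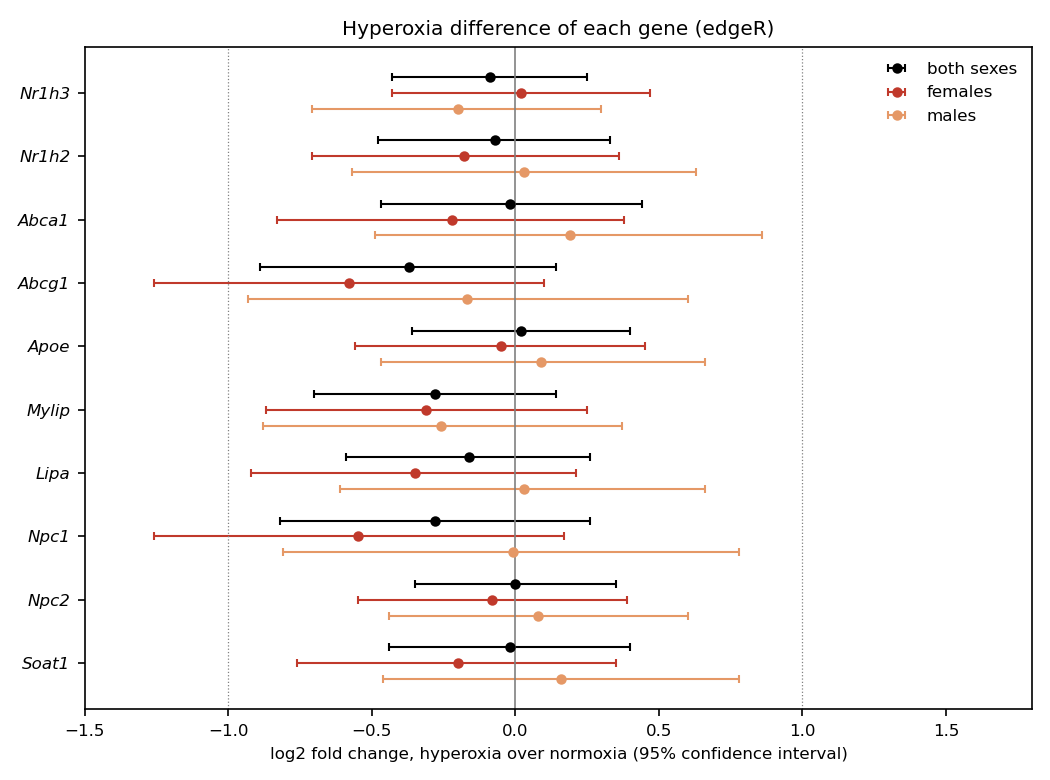
Log2 fold change (x axis), hyperoxia over normoxia, of the 10 genes (y axis) over both sexes, in females and in males, as points with 95% confidence intervals from the edgeR fit, with dotted lines at -1 and 1. Every interval includes 0, and the bounds that pass -1 are those of Abcg1 and Npc1 in females (both -1.26).

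The comparison within each sex addressed the title's question. In females, 9 of the 10 members lay below 0, with a median log2 fold change of -0.21, and the median of all genes was 0.00. Abcg1 (-0.58 ± 0.32, SE) and Npc1 (-0.55 ± 0.34, SE) lay furthest down. In males 6 of the 10 lay above 0 with a median of 0.03, against -0.05 over all genes, and Abca1 was the highest (0.19 ± 0.32, SE) and Mylip the lowest (-0.26 ± 0.30, SE). Without NM3, and likewise without all 4 libraries with most genes detected, only 2 of the 10 lay above 0 in males, with a median of -0.16 in either case. In females without those 4 libraries 8 of the 10 lay below 0, with a median of -0.17. In neither sex did a member pass edgeR's quasi-likelihood test, where 0.0401% of all genes passed in each (at an unadjusted p under 0.05, 4.53% of all genes in females and 5.5% in males, and no member). The smallest unadjusted p of a member (edgeR) was 0.0917 in females, for Abcg1, and 0.402 in males, for Mylip.

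The female response minus the male response, tested as an interaction, was below 0 for 9 of the 10 members, with a median of -0.28 beside 0.01 over all genes, and none passed. Without those 4 libraries 5 of the 10 lay below 0, with a median of -0.04. With 0 of 19948 genes called (percent called 0), edgeR's quasi-likelihood test found 334 genes (1.67%) at an unadjusted p under 0.05, none of them a member, and DESeq2 called 3. The differences of Npc1 (-0.53 ± 0.50), Abca1 (-0.41 ± 0.43) and Abcg1 (-0.41 ± 0.48, all SE) had intervals as wide as -1.60 to 0.53, so that at this number of libraries a difference of up to 3.03-fold between the sexes' responses lay within the intervals. Only 4 of the 10 intervals stayed within 1 log2 unit of 0.

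Females were also set against males over both oxygen groups. Mylip had 35.5 to 67.7 CPM in female libraries and 32.7 to 56.3 CPM in male libraries, with a log2 fold change of 0.36 ± 0.20 (SE, female over male), the furthest from 0. Nr1h3 averaged 29.8 ± 4.02 CPM in female libraries (SD, n = 6) and 35.4 ± 6.49 CPM in male libraries (SD, n = 5), with -0.22 ± 0.16 (SE). Of the 10 members 7 lay above 0, the median was 0.18 beside 0.01 over all genes, and none passed (0.0251% of all genes did) or had an unadjusted p under 0.05 (3.27% did). The groups overlapped for every member, as they did for all but 0.326% of genes. Without the 4 libraries with most genes detected, only HF1 was left of the hyperoxia females. Mylip then stood at 0.58 ± 0.16, Abcg1 at 0.42 ± 0.18 and Nr1h3 at -0.36 ± 0.16 (all SE). That fit lends HF1 the spread of the other groups, and no member passed in it. In the fit of all libraries, all 10 intervals stayed within 1 log2 unit of 0.

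Several members were high or low together in the same libraries. In NM3 all 10 members lay below their own mean over the 11 libraries, and in HF3 9 of them did. In NF2 and NM2 9 of the 10 lay above it. NM3 was the lowest normoxia male for 9 of the 10 members, NF3 the lowest normoxia female for 7, and HF3 the lowest hyperoxia female for 8. These 3 libraries were among the 4 with most genes detected. HF2, the fourth, was the lowest hyperoxia female for 2 members. The part of this library feature in the members' spread was not tested.

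The spread over libraries was graded among the members. The highest library stood at 3.05 times the lowest for Npc1 and 2.50 times for Abcg1, and the ratio was 2.18 for Abca1, 2.07 for Mylip and Soat1, 1.98 for Lipa and 1.89 for Nr1h2. It was 1.84 for Nr1h3, 1.51 for Apoe and 1.46 for Npc2. Within the hyperoxia libraries alone no member exceeded 1.86. Abcg1 and Npc1 were each other's nearest member, with a root mean square difference of 0.144 between their centred log2 CPM over the 11 libraries, and Lipa and Soat1 likewise (0.170). These closenesses are descriptions, since genes of 1 library share its depth and scaling.

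**Figure D4:**
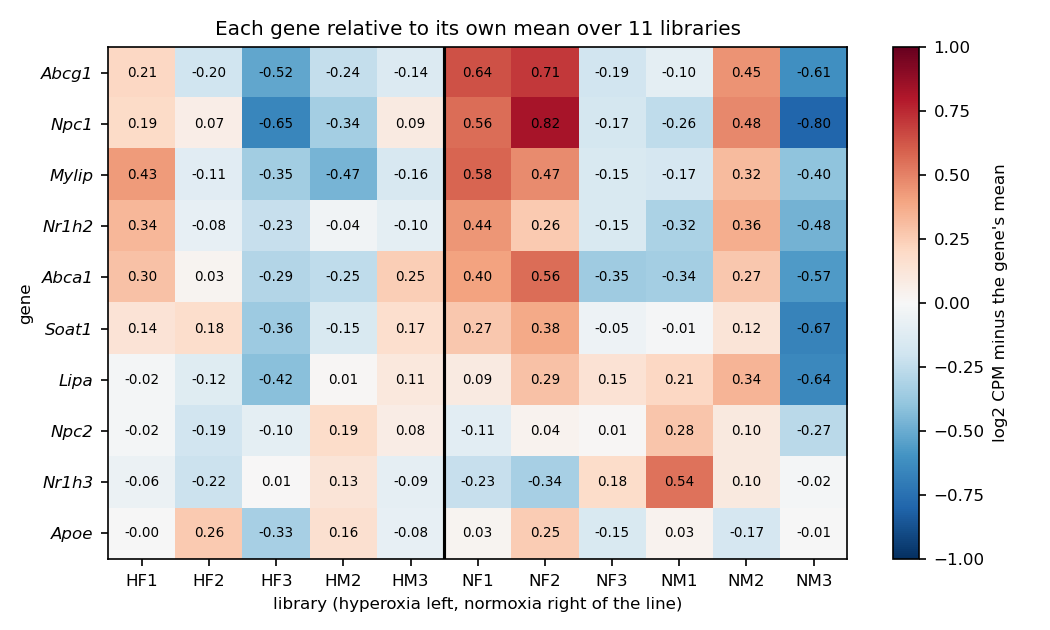
Log2 CPM of each member minus its own mean over the 11 libraries (colour and number), with genes as rows and libraries as columns, hyperoxia left and normoxia right of the line. The upper rows are high in NF1, NF2 and NM2 and low in NM3 and HF3, and Npc2, Nr1h3 and Apoe in the lower rows follow that pattern least.

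By the same measure over all tested genes, the genes closest to Abca1 were Nfam1, Sh3pxd2b and Dapk1 (root mean square differences of 0.0682, 0.0701 and 0.0725 log2 units, against a median of 0.585). Those closest to Abcg1 were Slc38a7, B3gnt7 and Themis2 (0.0698, 0.0846 and 0.0912, median 0.624). Apoe had Hgh1, Lysmd3 and Papolg nearest (0.118, 0.123 and 0.123, median 0.465). Among these 11 libraries many genes share the library pattern, so nearness to Abca1 or Abcg1 says that they are high and low in the same libraries.

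Around the members, 9 lists of pathway genes were drawn up, with 101 genes of which 95 were tested. None of the 95 passed in any of the 5 comparisons (edgeR's quasi-likelihood test), where over both sexes 0.707% of all genes did. Over both sexes their median log2 fold change, hyperoxia over normoxia, was 0.04, with 61.1% above 0, against 45.9% of all genes. An unadjusted p under 0.05 was found for 12 of the 95, against 8.13% of all genes.

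Other LXR target genes (14 of 16 tested) had a median of 0.12, and 8 lay above 0. Scd1, a fatty acid desaturase that LXR raises through SREBP-1c, had 5.21, 3.73 and 4.36 CPM in HF1 to HF3 and 5.32 and 4.68 CPM in HM2 and HM3. In normoxia it had 2, 3.24 and 2.16 CPM in NF1 to NF3 and 1.97, 2.08 and 2.89 CPM in NM1 to NM3. Every hyperoxia library lay above every normoxia one, as for 1.76% of all genes, but the difference did not pass (0.98 ± 0.23, SE, edgeR quasi-likelihood, Benjamini-Hochberg adjusted p = 0.061). Scd2, a related desaturase, had 0.63 ± 0.22 (SE). The most abundant of the list were Lpl, lipoprotein lipase (1530 CPM on average over the libraries, -0.06 ± 0.22, SE), and Mertk, a receptor for dying cells (239 CPM, -0.27 ± 0.20, SE).

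Partners and coregulators of LXR (15 of 15 tested) had a median of 0.03. The corepressor Ncor1, among the most abundant of them, had 271 CPM and 0.03 ± 0.23 (SE). The smallest p were those of Rxrg (-1.24 ± 1.26, SE), at 0.176 CPM, and Gps2 (-0.16 ± 0.20, SE), a corepressor subunit. In females 14 of the 15 lay below 0 and in males 12 of them above it, and the difference between the sexes, with a median of -0.38, passed for none.

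Among genes that make or clear oxysterols (6 of 7 tested, median -0.26), Hsd3b7 acts on hydroxylated sterols on the way to bile acids. It had 37.7, 29.9 and 47.4 CPM in HF1 to HF3 and 44.5 and 39.2 CPM in HM2 and HM3, against 75.6, 54.7 and 70.5 CPM in NF1 to NF3 and 81.9, 61.2 and 60.6 CPM in NM1 to NM3. Every hyperoxia library lay below every normoxia one, as for 0.396% of all genes, and the difference narrowly missed the threshold (-0.75 ± 0.17, SE, edgeR quasi-likelihood, Benjamini-Hochberg adjusted p = 0.0583). Ch25h, which makes 25-hydroxycholesterol, stood at -0.80 ± 0.30 (SE) and did not pass.

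Other efflux routes and acceptors (5 of 7 tested) had a median of 0.11, with Scarb1, the HDL receptor (140 CPM, 0.05 ± 0.21, SE), and Abca2 (82.9 CPM, 0.13 ± 0.22, SE) the most abundant. The smallest p there were those of Abca7 (0.13 ± 0.18, SE) and Abcg4 (-0.47 ± 0.68, SE). Carriers of sterol from lysosome to endoplasmic reticulum, listed together with other lysosomal genes (18 of 18 tested), had a median of 0.03. Of these the lysosomal membrane proteins Lamp1 (743 CPM, 0.02 ± 0.21, SE) and Scarb2 (591 CPM, -0.04 ± 0.19, SE) stood highest, and Gpr155, a lysosomal cholesterol sensor (-0.56 ± 0.22, SE), and Gramd1b, a sterol carrier (0.38 ± 0.17, SE), had the smallest p.

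Genes of the ester cycle (5 of 5 tested) had a median of -0.26. Plin2, the coat of lipid droplets, had 563 to 740 CPM in hyperoxia libraries and 707 to 1080 CPM in normoxia libraries, with -0.59 ± 0.19 (SE) and an adjusted p of 0.234 (edgeR quasi-likelihood, Benjamini-Hochberg). NM3 was the normoxia library inside the hyperoxia range. Nceh1, a neutral ester hydrolase (425 CPM, -0.26 ± 0.21, SE), and Lipe, hormone-sensitive lipase (0.42 ± 0.19, SE), did not pass either. Lipoprotein receptors and partners of the Mylip protein (7 of 7 tested) had a median of 0.22, with Lrp1, a large endocytic receptor, at 1920 CPM (0.16 ± 0.29, SE). The deubiquitinase Usp2 (0.41 ± 0.20, SE) and the receptor Lrp8 (0.22 ± 0.17, SE) had the smallest p.

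Sterol synthesis genes under SREBP2 (18 of 18 tested) had a median of 0.12 with 16 above 0 and none at an unadjusted p under 0.05. Sqle (0.39 ± 0.21) and Insig1 (0.26 ± 0.15, both SE) had the smallest p, and Srebf2 (113 CPM, 0.12 ± 0.22, SE) and Hmgcs1 (101 CPM, 0.24 ± 0.19, SE) were the most abundant. Regulators of the PPAR and TFEB families with the PPAR target Cd36 (7 of 8 tested) had a median of -0.20. Cd36, a scavenger receptor and fatty acid carrier, had 304 to 356 CPM in hyperoxia libraries and 397 to 677 CPM in normoxia libraries, groups that did not overlap, as for 0.396% of all genes in this direction. It had a log2 fold change of -0.64 ± 0.19 (SE) and an adjusted p of 0.189 (edgeR quasi-likelihood, Benjamini-Hochberg), and Pparg (106 CPM) had -0.20 ± 0.21 (SE) and Tfec -0.22 ± 0.15 (SE).

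**Figure D5:**
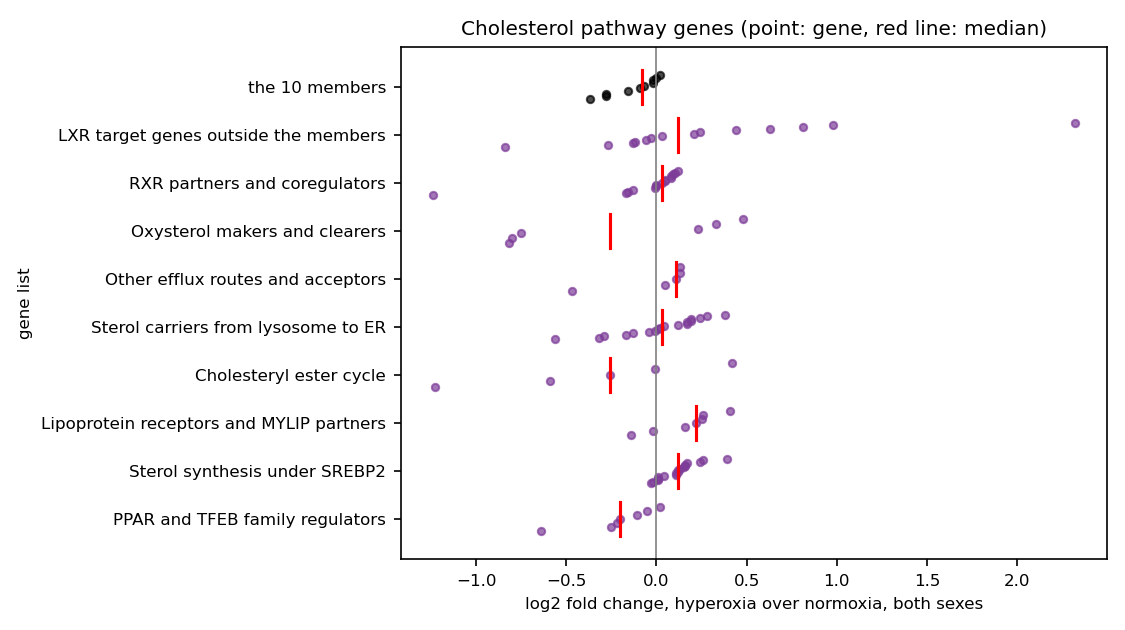
Log2 fold change (x axis), hyperoxia over normoxia over both sexes, of each tested gene (points) in the 10 members and the 9 pathway lists (y axis), with red lines for list medians. The medians lie between -0.26 and 0.22, and the 10 members lie between -0.37 and 0.02.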

How the data were processed

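The authors deposited 1 table of raw read counts per Ensembl gene for the 11 libraries, with no normalization. Per the labels' protocols, libraries came from a SMART-Seq v4 low-input kit, and the leading molecular identifiers were trimmed off. Whether these were used to collapse duplicates, and whether counting used strand, is not given in the sources used here, so reads of overlapping genes can be shared. Some libraries were size-selected again and resequenced, which ones being unclear. The build was mm39, and Salmon 1.10.1, STAR 2.7.9, DESeq2 1.42, Trim Galore 0.6.7 and R 4.3.2 are named, per the submitters' processing notes.

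Symbols came from a supplied table, which matched 90.7% of identifiers. Exon lengths came from GENCODE M21 and promoters from RefSeq GRCm38.p6, builds other than that of the counts. The coordinates given for the Abca1 promoter are therefore those of GRCm38.p6. Counts were fitted in R 4.3.3 with edgeR 4.0.16 (expression filter with a count of 10 and a total of 15, TMM scaling, robust quasi-likelihood, 1 mean for each of 4 groups) and 5 contrasts, Benjamini-Hochberg adjusted over all 19948 genes. Intervals (95%) use the fit's degrees of freedom. Log2 CPM used a prior count of 2. The fit was tested on simulated data. Replicates were compared for duplicates, and every pair differed beyond counting noise (chi-square per gene of at least 20.9). The smallest count of a member in any library was 610, so counting error is small beside the spread between libraries.

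The members, lists and tests were chosen with earlier results of these data known. Named from each list were genes past the threshold, the 2 most abundant, and the 2 of smallest p over both sexes. Some genes that this rule names are not reported here.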

Additional observations from a re-analysis of the deposited data

Results flagged for a closer look

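Each member was checked in the hyperoxia and the normoxia libraries, 20 sets in all, for a library standing far from the rest, and 1 set was flagged where chance flags about 1 in 20. Lipa in NM3 had 297 CPM, and the gap to the next normoxia library was 0.671 of the group's whole range, above Dixon's 95% critical value of 0.625. NM3 had the lowest total count and the most genes detected, and the part of either in this value was not tested.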

How the results depend on the processing

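No member passed in any of the 5 comparisons under any setting run. The smallest adjusted p over all settings were 0.388 over both sexes (Abcg1, without NM3), 0.617 in females, 0.551 in males, 0.388 between the sexes and 0.732 for the interaction. Over both sexes 141 genes were called, against 448 with DESeq2's Wald test, 302 without the filter, 256 with the replicate block and 23 once NM3, NF3, HF2 and HF3, the 4 libraries richest in detected genes, were left out. For males, 8 genes were called, against 89, 83, 21 and 16 in the same order, and 34 from male libraries alone. For females, 8 were called, against 95, 96, 23 and 2, and 14 from female libraries alone. Between the sexes 5 were called, against 35, 62 and 9 for the first 3 settings. The interaction had 0 calls, against 3 with DESeq2, 6 without the filter and 1 without the 4 libraries. Leaving out each library in turn gave 36 to 195 calls over both sexes, 0 to 19 in males, 0 to 24 in females, 5 to 14 between the sexes and 0 to 1 for the interaction. Libraries of different groups were correlated on the deviations of their log2 CPM from the group mean. These correlated over 0.1 in 7 of 15 same-numbered pairs (-0.167 to 0.574). The deviations of HM2 and HM3 mirror each other, so the pairs are not independent. Pairs with unlike numbers ran from -0.612 (HF1 with NM3) to 0.512 (HF1 with NM2). The labels do not say what a number stands for, so the unblocked values are the ones reported.

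The values whose sign turned lay between -0.20 and 0.19, and the cause was not tested. With DESeq2's size factors, and with its test, Apoe was -0.02 over both sexes and Nr1h3 -0.01 in females. With the replicate block Abca1 was 0.06 and Soat1 0.04 over both sexes, and Abcg1 0.01 and Npc1 0.20 in males. Without the 4 libraries Apoe was -0.02 over both sexes, and in males Nr1h2 was -0.12, Npc2 -0.06, Lipa -0.21 and Soat1 -0.04. In the same setting Npc2 was 0.01 in females, and the interactions of Nr1h2, Mylip and Npc2 were 0.10, 0.30 and 0.07. With 1 library left out at a time, values over both sexes kept their sign but spanned -0.49 to -0.22 for Abcg1, -0.41 to -0.17 for Mylip, -0.42 to -0.08 for Npc1 and -0.30 to -0.07 for Lipa, each nearest to 0 without NM2. They spanned -0.15 to 0.12 for Abca1, -0.16 to 0.08 for Nr1h2, -0.06 to 0.09 for Apoe and -0.14 to 0.06 for Soat1. In males they spanned -0.07 to 0.47 for Abca1, -0.38 to 0.15 for Abcg1, -0.11 to 0.33 for Nr1h2, -0.01 to 0.23 for Apoe, -0.26 to 0.39 for Npc1, -0.06 to 0.19 for Npc2, -0.21 to 0.21 for Lipa and -0.04 to 0.33 for Soat1. In females they spanned -0.10 to 0.20 for Nr1h3 and -0.21 to 0.08 for Apoe. Between the sexes they spanned -0.05 to 0.10 for Apoe and -0.16 to 0.05 for Lipa, and for the interaction of Mylip -0.30 to 0.11.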

Other observations

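The LXR target genes Cd5l and Arl4c, which lie outside the rule for named genes, are given here and were chosen after their values were seen. Cd5l, a secreted protein of macrophages that LXR induces, had 35.5 CPM in HF2 and 2.61 CPM in HF3, 0.0332 CPM in HF1 and 0.473 and 0.599 CPM in HM2 and HM3, against 0 to 1 CPM in the normoxia libraries. Its log2 fold change of 4.73 in females and 2.32 over both sexes was not called, and HF2 also had the most interstitial macrophage marker RNA (128 CPM), whose part in the value was not tested. Arl4c, a small GTPase, had the smallest unadjusted p of the list between the sexes, at 27.8 to 40.8 CPM in female libraries and 39.6 to 63.7 CPM in male libraries (log2 fold change -0.48 ± 0.16, SE, female over male, edgeR quasi-likelihood, Benjamini-Hochberg adjusted p = 0.994).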
